A study of Mus musculus with 78 samples.

Results

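The 9 genes described here encode 6 matrix metalloproteinases (Mmp2, Mmp8, Mmp9, Mmp13, Mmp14 and Mmp19) and 3 tissue inhibitors of metalloproteinases (Timp1, Timp2 and Timp3), out of 19938 genes measured in mouse liver. They were chosen by name, as all members of a short list whose symbol stood alone on a probe set, with Mmp12 (macrophage elastase) left out, and each had 1 probe set. The study used 78 female mice, with 1 Affymetrix array of liver RNA for each. An age series of 48 mice came from intercrosses of heterozygotes on the strain labelled BALB/cNctr-Npc1m1N/J, with 4 Npc1-/- and 4 Npc1+/+ littermates at every odd week of age from 1 to 11. The labels call Npc1-/- mice pre-symptomatic at 1 and 3 weeks and post-symptomatic from 5 weeks on. A second set of 30 mice was BALB/cJ, aged 12 weeks, with 5 mice in each of 6 groups and an intact Npc1 gene in all of them. One of these groups had no treatment and one was fasted overnight. The remaining 4 were given injections over 4 weeks, starting at 8 weeks of age, of a control antisense oligonucleotide (oligo) or of an Npc1 antisense oligo, each with or without the antioxidant N-acetyl-cysteine (NAC). The oligo lowers Npc1 messenger RNA in an adult animal and leaves some in place, whereas Npc1-/- mice carry the mutation from conception. Livers of the age series were frozen, and those of the second set were frozen or kept in RNAlater, which the labels do not assign to single mice.

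Matrix metalloproteinases are zinc enzymes that cut collagens and other proteins outside the cell. They are made as inactive precursors, and TIMP proteins bind their active site and block it. Mmp8 and Mmp13 cut fibrillar collagen, Mmp2 and Mmp9 cut denatured collagen and basement membrane, and Mmp14 sits in the cell membrane and, together with Timp2, activates the Mmp2 precursor there. In the liver, stellate cells, macrophages and neutrophils are known sources. Npc1 encodes a protein that carries cholesterol out of late endosomes and lysosomes, and its loss causes Niemann-Pick disease type C.

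Upstream sequences are shown for the 4 members that carry the main results, Mmp13 for the oligo groups and Timp2, Timp3 and Mmp14 for the genotype. RefSeq promoter windows on build GRCm38.p6 were found for 6 of the 9 members. Mmp2, Mmp9 and Mmp19 had none. Each line gives the 120 bases just before the transcription start, 5′ to 3′ on the gene's strand, in lower case. Capitals mark an AP-1 motif (TGANTCA, the element bound by Fos and Jun proteins) or a GC box (GGGCGG, the core element bound by Sp1), searched on both strands.
Mmp13, chr9:7272394-7272513, + strand: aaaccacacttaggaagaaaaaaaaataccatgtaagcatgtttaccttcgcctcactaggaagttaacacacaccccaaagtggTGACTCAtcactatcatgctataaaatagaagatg
Timp2, chr11:118355412-118355531, - strand: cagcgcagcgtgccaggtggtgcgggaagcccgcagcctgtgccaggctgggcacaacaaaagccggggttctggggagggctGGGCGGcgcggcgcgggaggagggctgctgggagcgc
Timp3, chr10:86300292-86300411, + strand: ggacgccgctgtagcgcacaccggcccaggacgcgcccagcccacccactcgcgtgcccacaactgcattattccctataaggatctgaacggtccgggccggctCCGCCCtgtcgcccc
Mmp14, chr14:54431478-54431597, + strand: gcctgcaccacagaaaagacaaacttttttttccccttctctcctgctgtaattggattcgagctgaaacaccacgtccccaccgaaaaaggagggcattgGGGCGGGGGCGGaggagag

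Over the 250 bases before the start, Mmp13 was the only one of the 6 members found with an AP-1 match, which began 35 bases before the start. Such a match stood in 6.749% of 32851 RefSeq promoters searched the same way. Mmp13 also held a TATA box (TATAAA), found in 12.37% of all promoters, and no GC box. The core of ETS factor sites (AGGAAG, in 29.48% of all promoters) stood in the windows of all 6 but Timp2. Timp1, Timp2 and Timp3 held 1 GC box each and Mmp14 held 2 that touch each other, against 32.74% of all promoters with at least 1. None of these matches shares bases with a match of another motif. These are matches of letters, not measured binding.

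Values are on a log2 scale, where a difference of 1 is a doubling of signal. The median over all genes and arrays was 5.54. Array medians lay between 5.35 and 5.65, and arrays of a group correlated across genes at a mean r of 0.991 to 0.996. A gene entered a test when it exceeded 5.54 in at least 4 arrays. Tests used limma over all genes that passed, two-sided, with Benjamini-Hochberg adjustment and a threshold of 0.05. Npc1 itself was lower in Npc1-/- than in Npc1+/+ mice at each age, with differences from -1.72 to -1.11. Under the Npc1 oligo it differed from the control oligo by -2.97 ± 0.15 (SE) without NAC and by -2.08 ± 0.15 with NAC. NAC alone also lowered it under the control oligo (-1.03 ± 0.15, adjusted p = 6.05e-05). The hepatocyte marker list stood between 12.8 and 13.2 in all 18 groups. Markers of other tissue stood out most on the arrays of 1-week Npc1-/- mouse 3 (skeletal muscle list mean 9.12, against 5.36 to 5.54 in the other 3) and 3-week Npc1+/+ mice 1 and 2 (exocrine pancreas list mean 8.99 and 8.97, against 5.33 and 5.17 in mice 3 and 4). Lower levels of the same kind occurred elsewhere. The pancreas list reached 6.92 in 1-week Npc1-/- mouse 2 and 6.07 to 6.67 in 1 mouse of each of 7 other groups, and the muscle list 6.52 in 7-week Npc1+/+ mouse 3. Each result at those ages is also given without these mice where it changed. Since whole liver was measured, fewer or more cells of a type and less or more RNA per cell cannot be told apart.

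Of the 9 members, 7 passed the filter in the age series, Mmp13 and Timp1 not. Mmp8 and Mmp9 passed through their 1-week arrays and lay below 5.54 in every older group. At 1 week 2 of the 7 were past the threshold, both lower in Npc1-/- mice, where 5.69% of the 12638 genes tested were called (2.91% higher, 2.78% lower). At every later age the members called were higher in Npc1-/- mice. They were 3 of 7 in 3-week mice, where 15.7% of genes were called (8.90% higher, 6.84% lower), and 4 of 7 in 5-week mice, where 12.6% were called (9.69% higher, 2.88% lower). In 7-week mice 4 were called beside 25.3% of genes (14.3% higher, 11.0% lower), and in 9-week mice 4 beside 33.2% (17.6% higher, 15.5% lower). In 11-week mice 6 were called beside 39.3% of genes (18.8% higher, 20.5% lower). Of those 6, Mmp8 and Mmp9 lay below 5.54 in every 11-week mouse, and the count was 4 with the stricter filter, with median centring or with only the compared groups, and 7 with no filter. Of all 9 members, 7 had every 11-week Npc1-/- mouse above every Npc1+/+ mouse of that age, as had 12.3% of the 19938 genes. The median difference of the 7 members was -0.20 at 1 week and 0.60 at 11 weeks, beside -0.01 and -0.02 for all genes tested. With arrays centred on their medians, the share of called genes that were higher went from 56.6% to 42.0% at 3 weeks, from 77.1% to 65.0% at 5, from 56.5% to 37.2% at 7, from 53.1% to 36.2% at 9 and from 47.8% to 32.8% at 11 weeks. That centring moved the median over all genes to -0.11 at 11 weeks.

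**Figure D1:**
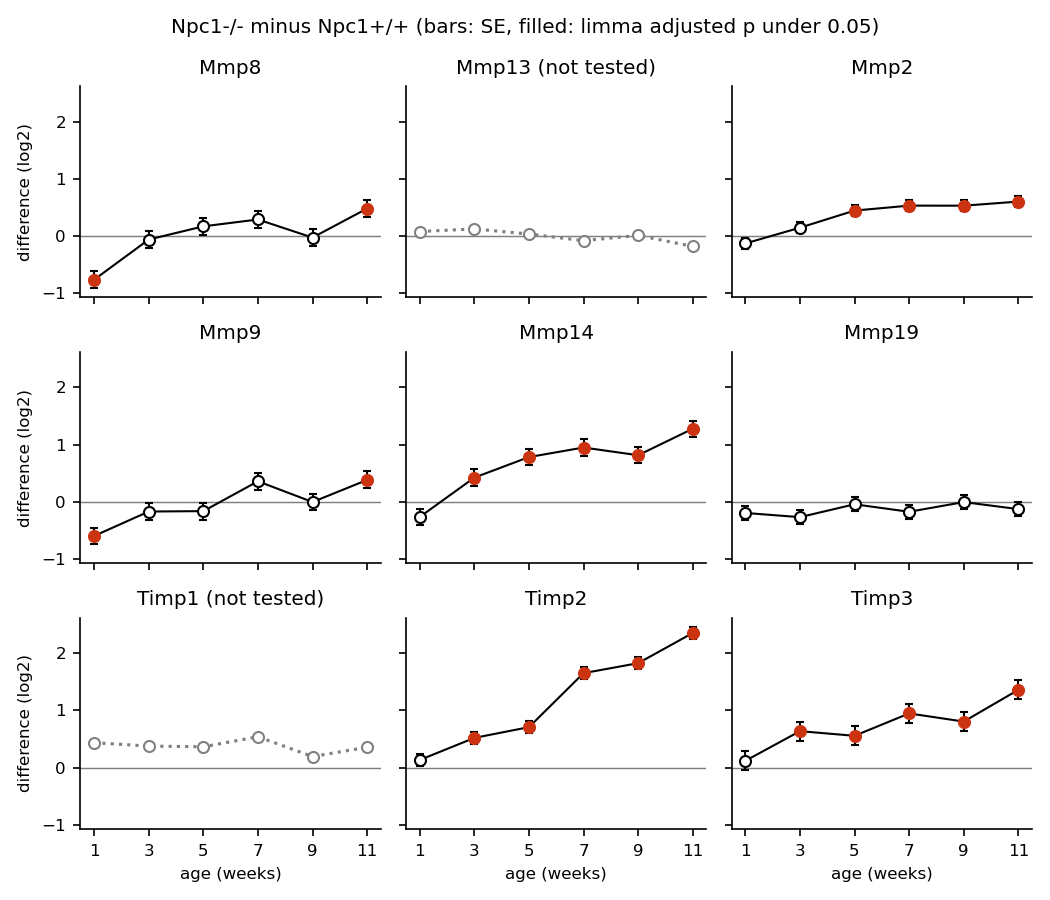
Difference in log2 expression between Npc1-/- and Npc1+/+ mice (vertical axis) at each age in weeks (horizontal axis) for the 9 genes, with standard errors and filled points where limma's adjusted p was under 0.05 (4 mice per group). Timp2 climbed to 2.35 at 11 weeks, Timp3, Mmp14 and Mmp2 were higher from 3 or 5 weeks on, and Mmp13 and Timp1, drawn dotted, did not pass the filter.

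Timp2, an inhibitor that also takes part in activation of the Mmp2 precursor, showed the largest differences of the list from 5 weeks on among the members tested, apart from Mmp14 at 5 weeks. At 1 week the 4 Npc1+/+ mice measured 7.06, 6.99, 7.05 and 7.28 and the 4 Npc1-/- mice 7.04, 7.27, 7.20 and 7.41. These groups overlapped and the difference was 0.13 ± 0.10 (adjusted p = 0.568, limma). At 3 weeks the Npc1-/- mice measured 7.03, 7.30, 7.50 and 7.32, all above the Npc1+/+ values of 6.81, 6.60, 6.82 and 6.86, a difference of 0.52 ± 0.10 (adjusted p = 0.000235). Without the 2 Npc1+/+ mice with pancreas markers it was 0.45 (adjusted p = 0.016).

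At 7 weeks Timp2 stood at 8.38, 8.07, 8.15 and 8.20 in Npc1-/- mice and at 6.50, 6.56, 6.55 and 6.59 in Npc1+/+ mice. At 11 weeks the values were 9.02, 8.89, 9.13 and 9.13 against 6.68, 6.71, 6.72 and 6.65. Each Npc1-/- mouse of 3 weeks or more was thus above each Npc1+/+ mouse of its age. The difference was 0.71 in 5-week mice, 1.65 at 7, 1.83 at 9 and 2.35 ± 0.10 at 11 weeks, a 5.11-fold change (adjusted p = 3.14e-23). It grew by 0.23 per week on average (adjusted p = 1.25e-19). Over the 18 groups of the study, Timp2 was highest in 11-week Npc1-/- mice, at 9.04 ± 0.11 (SD, n = 4), and the next group, 9-week Npc1-/- mice at 8.58 ± 0.26, did not overlap with it. The third, 7-week Npc1-/- mice at 8.20 ± 0.13, overlapped with the second and lay above all mice of the other groups.

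**Figure D2:**
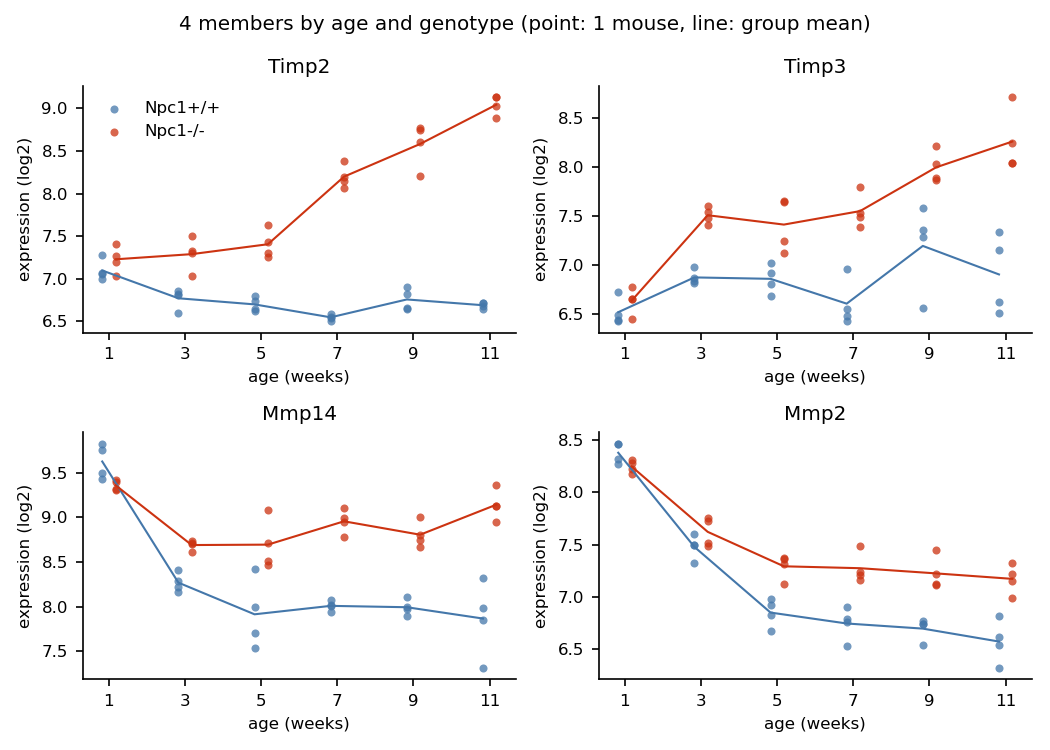
Log2 expression of Timp2, Timp3, Mmp14 and Mmp2 (vertical axes) against age in weeks (horizontal axes), with 1 point per mouse and lines through the group means of 4 mice. In Npc1+/+ mice Mmp14 fell from 9.63 at 1 week to 7.87 at 11 weeks and Mmp2 from 8.38 to 6.57, while Timp2 in Npc1-/- mice climbed from 7.23 to 9.04.

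Timp3, the inhibitor that binds to the matrix, was also higher in Npc1-/- mice from 3 weeks on. At 3 weeks Npc1-/- mice measured 7.61, 7.41, 7.54 and 7.48 and Npc1+/+ mice 6.86, 6.81, 6.83 and 6.98, with no overlap. The difference was 0.64 ± 0.16 (adjusted p = 0.00541), and without the 2 Npc1+/+ mice with pancreas markers 0.60 (adjusted p = 0.0637), which no longer passed. At 11 weeks the Npc1-/- mice measured 8.04, 8.25, 8.04 and 8.71 and the Npc1+/+ mice 6.51, 7.15, 7.33 and 6.62. The Npc1+/+ mice were spread over a wide range there, and still all lay below the Npc1-/- mice. The difference was 1.36 ± 0.16, or 2.56-fold (adjusted p = 3.9e-09). At 5, 7 and 9 weeks it was 0.55, 0.95 and 0.80 in turn (adjusted p = 0.018, 1.49e-05 and 0.000148). The 5-week call was lost when Npc1-/- mouse 1 or 2 or Npc1+/+ mouse 1 was left out, with adjusted p of 0.0727, 0.09 and 0.0602. The last of these was the 5-week Npc1+/+ mouse highest for the pancreas list (6.61).

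Timp1, an inhibitor gene often measured in liver fibrosis, lay below 5.54 in all 18 groups and was not tested. Its group means ran from 4.59 to 5.31. At 7 weeks Npc1-/- mice measured 5.20, 5.28, 5.07 and 5.28 and Npc1+/+ mice 4.74, 4.92, 4.43 and 4.59, without overlap. In a fit with no filter on level, over 19938 genes, Timp1 was past the threshold at 5 of the 6 ages, by 0.54 ± 0.11 at 7 weeks (adjusted p = 0.000175) and by 0.35 to 0.43 at 1, 3, 5 and 11 weeks. In that fit 8.88% of genes were called higher and 6.65% lower at 7 weeks. At 9 weeks the difference was 0.19 (adjusted p = 0.217). Signal this low can understate a change.

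Mmp14, the membrane-anchored protease, was like Timp3 higher in Npc1-/- mice from 3 weeks on. At 1 week Npc1+/+ mice measured 9.43, 9.50, 9.83 and 9.75 and Npc1-/- mice 9.31, 9.42, 9.31 and 9.40, a difference of -0.27 ± 0.14 that did not pass (adjusted p = 0.338). Both genotypes were lower at 3 weeks. Npc1+/+ mice then stayed near 8, with 7.85, 7.99, 7.31 and 8.32 at 11 weeks, when Npc1-/- mice measured 9.37, 9.13, 9.12 and 8.95. The groups did not overlap at any age, with Npc1-/- mice below Npc1+/+ mice at 1 week and above them from 3 to 11 weeks. The difference was 0.42 ± 0.14 at 3 weeks (adjusted p = 0.0379), 0.78 at 5, 0.95 at 7, 0.81 at 9 and 1.28 ± 0.14 at 11 weeks (adjusted p = 5.89e-10), or 2.42-fold. The 3-week call was lost under several alternatives. Its adjusted p was 0.0536 with no filter, 0.0701 with array centring and 0.0776 without the 2 mice with pancreas markers, and up to 0.0945 with single mice left out.

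Mmp2, whose precursor Mmp14 activates, fell with age in both genotypes and fell less in Npc1-/- mice. At 1 week the Npc1+/+ mice measured 8.32, 8.47, 8.27 and 8.46 and the Npc1-/- mice 8.28, 8.17, 8.23 and 8.31, with overlap. At 11 weeks the Npc1+/+ mice measured 6.32, 6.61, 6.54 and 6.81 and the Npc1-/- mice 7.22, 7.15, 6.99 and 7.32, with none. The difference was -0.13 at 1 week and 0.14 at 3 weeks, neither past the threshold, then 0.44, 0.53, 0.53 and 0.60 ± 0.10 at 5, 7, 9 and 11 weeks (adjusted p between 1.8e-06 and 0.000931). The 11-week value was 1.52-fold.

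Mmp8 and Mmp9, both stored in the granules of neutrophils, were the members lower in Npc1-/- mice at 1 week. Mmp8, the neutrophil collagenase, measured 5.89, 5.94, 5.62 and 5.66 in Npc1+/+ mice and 4.95, 5.61, 4.50 and 5.00 in Npc1-/- mice. The groups did not overlap, though mouse 2 of the second lay just under the lowest of the first. The difference was -0.77 ± 0.14 (adjusted p = 0.000397). As Mmp8 entered this test mainly through the Npc1+/+ arrays, the fit with no filter is the one that does not depend on them (adjusted p = 0.000499 over 19938 genes). The difference was -0.59 (adjusted p = 0.00802) without Npc1-/- mouse 3, which carried muscle markers. Mmp9, a gelatinase, measured 5.61, 5.90, 6.30 and 6.56 against 5.25, 5.74, 5.40 and 5.60, with overlap. Its difference of -0.60 ± 0.15 (adjusted p = 0.00866) did not pass without Npc1-/- mouse 1 (adjusted p = 0.0523), Npc1+/+ mouse 3 (0.0553) or Npc1+/+ mouse 4 (0.0924). Without Npc1+/+ mice 3 and 4 together, whose original names are numbered apart from the rest, the Mmp9 difference was -0.26 (adjusted p = 0.58) and Mmp8 no longer passed the filter.

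By 3 weeks both genes lay below 5.54 in every mouse of both genotypes. Their group means in 1-week Npc1-/- mice were already below it, at 5.01 for Mmp8 and 5.50 for Mmp9. At 11 weeks Npc1-/- mice measured 3.53, 3.80, 3.79 and 4.41 for Mmp8, above the 3.42, 3.44, 3.42 and 3.33 of Npc1+/+ mice. For Mmp9 they measured 5.00, 4.86, 5.03 and 5.10, above 4.46, 4.74, 4.79 and 4.47. The differences of 0.48 ± 0.14 (adjusted p = 0.00627) and 0.38 ± 0.15 (adjusted p = 0.0362) were the reverse of those at 1 week. That of Mmp8 was 0.30 (adjusted p = 0.0834) without Npc1-/- mouse 4. That of Mmp9 was 0.29 (adjusted p = 0.0923) with array centring and 0.33 to 0.38 (adjusted p up to 0.103) when one of 5 of the 8 mice was left out. One of those 5, Npc1+/+ mouse 4, was highest of its group for the pancreas list (6.46), and without it the adjusted p was 0.102. At 3, 5, 7 and 9 weeks neither gene passed. For Mmp8, every 7-week Npc1-/- mouse was still above every Npc1+/+ mouse of that age, as for 9.62% of 19938 genes (difference 0.29). Mmp9 passed at 7 weeks in limma without Npc1+/+ mouse 1 (0.47, adjusted p = 0.0212).

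**Figure D3:**
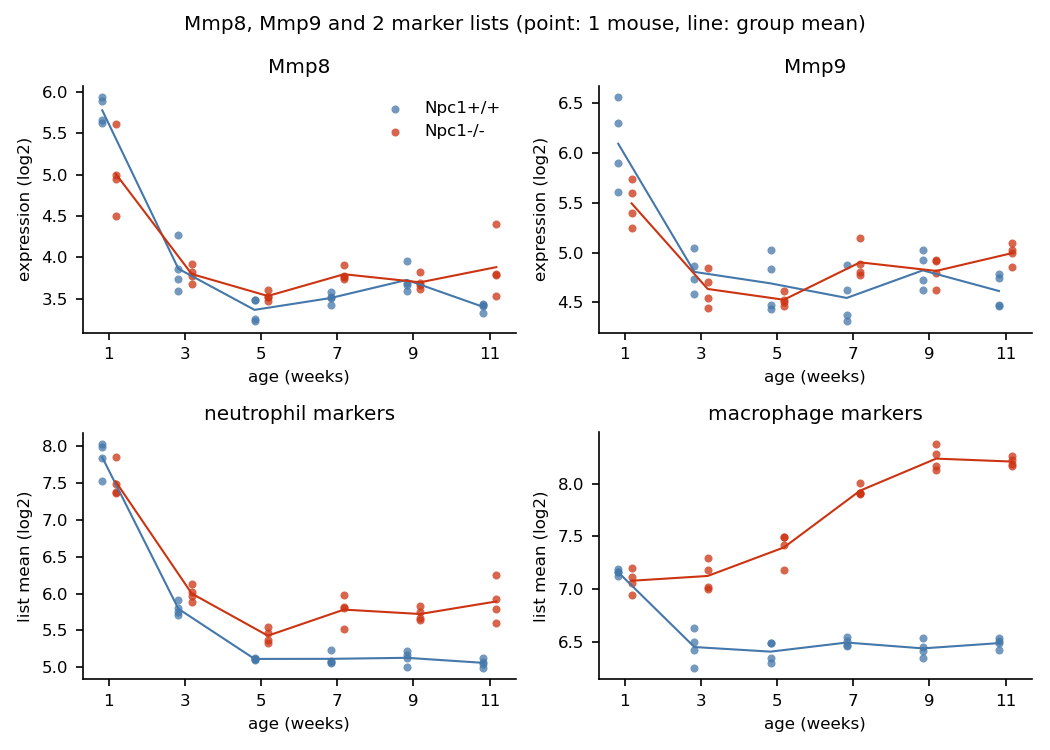
Log2 expression of Mmp8 and Mmp9 (top) and the mean log2 level of 12 neutrophil and 11 macrophage marker genes (bottom) against age in weeks, 1 point per mouse and lines through the means of 4 mice. The neutrophil list stood at 7.84 in 1-week Npc1+/+ mice and 7.52 in Npc1-/- mice and at 5.06 and 5.89 at 11 weeks, and the macrophage list reached 8.21 in 11-week Npc1-/- mice.

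A list of 12 other neutrophil genes differed in the same direction as both at 1 and 11 weeks. Its mean level in 1-week mice ran from 7.52 to 8.03 in Npc1+/+ and from 7.36 to 7.85 in Npc1-/- mice, and 3 of 11 genes tested were lower (Retnlg by -0.63, Ltf by -0.55, Elane by -0.38). At 11 weeks it ran from 4.99 to 5.13 and from 5.60 to 6.25, and 10 of 11 were higher. Npc1-/- mouse 4, which was highest for Mmp8 at that age, was also highest for this list (6.25). At 7 and 9 weeks 7 and 5 of these genes were higher while Mmp8 differed by 0.29 and -0.03 and Mmp9 by 0.36 and -0.01. Of all genes tested, 2.78% were lower at 1 week, and 14.3%, 17.6% and 18.8% were higher at 7, 9 and 11 weeks. The list mean was also higher in Npc1-/- mice at 3 weeks (6.00 against 5.79) and 5 weeks (5.43 against 5.11). There Mmp8 differed by -0.06 and 0.17 and Mmp9 by -0.17 and -0.16. Lcn2 rose by 2.48 ± 0.31 at 11 weeks. It encodes lipocalin 2, a granule protein that hepatocytes also make. The part of neutrophil number in the Mmp8 and Mmp9 results was not tested.

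Mmp13, the interstitial collagenase of rodents, showed no difference between the genotypes that could be seen at this signal. At 11 weeks Npc1+/+ mice measured 4.63, 4.57, 4.60 and 4.66 and Npc1-/- mice 4.64, 4.49, 4.23 and 4.37. Its 12 group means in the age series lay between 4.37 and 4.63. With no filter the differences ran from -0.18 to 0.12, with adjusted p from 0.238 to 0.971.

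Mmp19, a secreted protease with broad substrates, had the narrowest range of group means in the age series among the metalloproteinases that passed the filter, from 8.91 to 9.38. It passed at no single age, with differences between -0.27 and -0.01. Averaged over the ages the difference was -0.14 ± 0.05 (adjusted p = 0.0165), and -0.08 (adjusted p = 0.0946) after quantile normalization. In that averaged contrast 5 of 7 members were called, beside 52.6% of all genes (26.0% higher, 26.6% lower), and with centred arrays the share of called genes that were higher went from 49.4% to 31.6%. Age alone moved 6 of 7 members in Npc1+/+ mice and 6 of 7 in Npc1-/- mice by the moderated F test, all but Mmp19, against 53.3% and 55.6% of genes. Of these 6, Mmp8 and Mmp9 entered the fit only through their 1-week arrays, so their calls for age depend on the filter. The genotype difference itself varied between ages for the same 6 (27.7% of genes), and its slope per week was above 0 for all 6 (28.9% of genes called, 14.9% above 0 and 14.0% below), where with centred arrays the share of called genes above 0 went from 51.5% to 37.3%. Here too the calls of Mmp8 and Mmp9 depend on the filter, which they passed mostly through 1-week Npc1+/+ arrays.

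Cell type markers moved with age and genotype beside the members. The macrophage list stood between 6.41 and 6.50 in Npc1+/+ groups of 3 weeks and more. In Npc1-/- mice it rose from 7.13 at 3 weeks to 8.24 at 9 weeks, and at 11 weeks Cd68 was higher by 3.99 and Lyz2 (lysozyme) by 3.62. Of its 10 genes tested, 9 were higher and 1 lower at that age, beside 18.8% and 20.5% of all genes tested. Markers of resident Kupffer cells went the other way, with a difference of -3.14 for Cd163 and -2.13 for Clec4f at 11 weeks, when 6 of 7 tested were lower. The stellate and myofibroblast list differed less, at 6.85 against 6.62 at 11 weeks, with 4 of 9 genes higher, 1 lower. Postn (periostin) was higher by 0.98 and Pdgfrb by 0.56. Which of these cells the Timp2, Timp3, Mmp14 and Mmp2 signal came from was not tested.

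Genes that work beside the members were counted by list. At 11 weeks, beside 39.3% of all genes tested and their median of -0.02, the calls and median differences were 10 of 17 and 0.26 for substrates and 7 of 14 and 0.21 for ADAM and ADAMTS proteases. They were 5 of 6 and 0.71 for the plasminogen system, 7 of 12 and 0.19 for inducers, and 3 of 8 and 0.11 for other family members and inhibitors, the last near the share of all genes. Of 17 substrate genes tested (collagens, laminins, fibronectin, proteoglycans), 7 were higher at 3 weeks, 8 at 5, 11 at 7, 12 at 9 and 9 at 11 weeks. None was lower before 9 weeks, and 1 was lower at 9 and at 11 weeks. Of all genes tested, 8.90%, 9.69%, 14.3%, 17.6% and 18.8% were higher at 3, 5, 7, 9 and 11 weeks in turn. At 7 weeks Col1a1 was higher by 0.90 ± 0.14 and biglycan (Bgn) by 0.75 ± 0.09. At 11 weeks decorin (Dcn) was higher by 0.86 ± 0.08. Of 14 ADAM and ADAMTS proteases, which shed membrane proteins or cut proteoglycans, 7 were higher at 7 and at 11 weeks and none lower. Adam8, a myeloid sheddase, led with 3.08 ± 0.15 at 11 weeks, and Adam17 (0.49) and Adam10 (0.43) were higher too.

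The plasminogen system, which can activate several metalloproteinase precursors, had 3 of 6 genes higher and 2 lower at 11 weeks. The urokinase receptor gene Plaur was higher by 2.33 ± 0.12, the plasminogen-binding annexin gene Anxa2 by 1.82 ± 0.17 and urokinase (Plau) by 1.13 ± 0.11. Serpinf2, which encodes the plasmin inhibitor, was lower (-0.51 ± 0.09). Of 8 other family members and inhibitors tested, 2 were higher and 1 lower at 11 weeks, namely Mmp7 (matrilysin, 0.66 ± 0.14), Mmp11 (0.26 ± 0.10) and the membrane inhibitor Reck (-0.28 ± 0.09). Among 12 inducers of metalloproteinase genes, 7 were higher at 7 weeks, beside 14.3% of all genes tested. At 11 weeks Spi1, the myeloid factor PU.1, was higher by 1.95 and Jun by 1.32.

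In the 12-week set 6 members passed the filter, and Mmp8, Mmp9 and Timp1 did not. Mmp13 passed through the arrays of the 2 Npc1 oligo groups and 1 of the control oligo group. Against the control oligo without NAC, the Npc1 oligo moved 4 of 6 members, 3 higher and 1 lower, where 22.6% of 11900 genes were called (14.7% higher, 7.88% lower). With NAC it moved the same 4 in the same directions, where 25.7% were called (11.0% higher, 14.7% lower). These comparisons share no mice. After quantile normalization the share of called genes that were higher went from 65.1% to 53.9% without NAC.

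Mmp13 was the member with the largest oligo difference. Untreated mice measured 4.48, 4.59, 4.62, 4.47 and 4.60, and mice on the control oligo 5.41, 5.01, 5.65, 5.08 and 5.34. Mice on the Npc1 oligo measured 6.78, 5.80, 5.94, 6.71 and 6.86. The 3 groups did not overlap. The Npc1 oligo mice were 1.12 ± 0.19 above the control oligo mice (adjusted p = 9.08e-05). As Mmp13 entered that test through the Npc1 oligo arrays, the fit with no filter is the one that does not depend on them (adjusted p = 9.83e-05, with 7.80% of 19938 genes called higher). The control oligo itself was above untreated by 0.75 ± 0.19 (adjusted p = 0.00521), the only member called in that comparison, where 26.3% of genes were called, 5.05% higher and 21.3% lower. After quantile normalization the share of called genes that were higher went from 19.2% to 41.2%, and Mmp14 (0.26, adjusted p = 0.011) and Timp3 (0.31, adjusted p = 0.00826) passed as well. Fitted on those 2 groups alone, Mmp13 did not pass the filter. Untreated mice, and all but 1 control oligo mouse, lay below 5.54, where signal can understate a change.

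With NAC, control oligo mice measured 5.13, 4.97, 5.04, 4.89 and 5.12 for Mmp13 and Npc1 oligo mice 6.10, 5.49, 5.15, 6.58 and 6.28. Mouse 3 of the latter lay just above the highest of the former. Mmp13 entered this test, too, through the Npc1 oligo arrays. The difference was 0.89 ± 0.19 (adjusted p = 0.000815), and 1.09 without mouse 3 (adjusted p = 2.84e-05). Mouse 3 of this group was also lowest for Timp2, Timp3, Mmp2 and Mmp14 and for the macrophage list (7.04, against 7.69 to 8.06 in the other 4). With against without NAC, Mmp13 differed by -0.50 under the Npc1 oligo and by -0.27 under the control oligo, neither past the threshold. The first passed in limma without Npc1 oligo mouse 2 (adjusted p = 0.0372) or Npc1 oligo with NAC mouse 4 (0.0276).

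**Figure D4:**
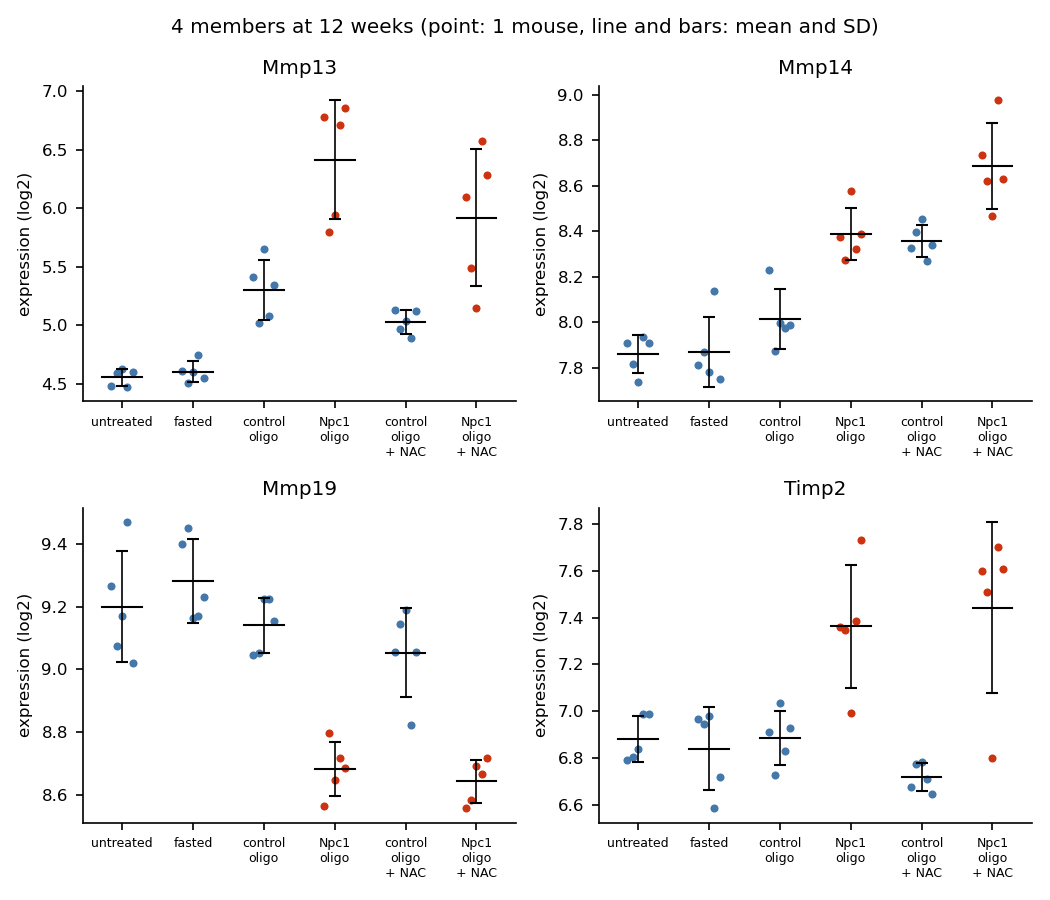
Log2 expression of Mmp13, Mmp14, Mmp19 and Timp2 (vertical axes) in the 6 groups of 12-week mice (horizontal axes), 1 point per mouse with the mean and SD of 5 mice and the Npc1 oligo groups in red. Mmp13 averaged 4.55 in untreated, 5.30 in control oligo and 6.42 in Npc1 oligo mice, and Mmp19 was lowest in both Npc1 oligo groups.

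Mmp19 was lower under the Npc1 oligo. Without NAC the control oligo mice measured 9.05, 9.05, 9.22, 9.22 and 9.15 and the Npc1 oligo mice 8.57, 8.80, 8.65, 8.72 and 8.69. With NAC they measured 9.06, 9.14, 9.19, 8.82 and 9.05 against 8.56, 8.58, 8.69, 8.67 and 8.72. The groups did not overlap in either case. The differences were -0.46 ± 0.08 (adjusted p = 7.5e-05) and -0.41 ± 0.08 (adjusted p = 0.000183).

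Timp2 rose by 0.48 ± 0.12 without NAC (adjusted p = 0.00518) and by 0.72 ± 0.12 with it (adjusted p = 4.34e-05). Without NAC, Npc1 oligo mice measured 7.36, 7.35, 6.99, 7.39 and 7.73 and control oligo mice 6.91, 6.73, 7.04, 6.83 and 6.93, so that 1 Npc1 oligo mouse fell within the control range. With NAC they measured 7.60, 7.51, 6.80, 7.70 and 7.61 against 6.68, 6.77, 6.78, 6.71 and 6.65. Mouse 3 again lay just above the controls, and without it the difference was 0.89 (adjusted p = 4.76e-08).

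Mmp14 was the one member called for both the Npc1 oligo and NAC. Control oligo mice measured 8.23, 7.87, 8.00, 7.98 and 7.99, and Npc1 oligo mice 8.37, 8.27, 8.58, 8.32 and 8.39. With NAC the values were 8.32, 8.40, 8.45, 8.27 and 8.34 and 8.73, 8.62, 8.47, 8.97 and 8.63. The Npc1 oligo raised it by 0.37 ± 0.08 without NAC (adjusted p = 0.00123) and by 0.33 ± 0.08 with NAC (adjusted p = 0.00312). NAC raised it by 0.34 ± 0.08 under the control oligo (adjusted p = 0.00857), as the only member called there beside 8.50% of genes (6.09% higher, 2.41% lower), and without overlap of the groups. The share of called genes that were higher there, 71.6%, was 50.8% after quantile normalization and 81.6% with centred arrays. Under the Npc1 oligo NAC raised it by 0.30 ± 0.08 (adjusted p = 0.0231), a call lost in a fit of those 2 groups alone (adjusted p = 0.112) and with some single mice left out (adjusted p up to 0.0757).

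Timp3 and Mmp2 were not moved by the Npc1 oligo past the threshold. Timp3 differed by 0.15 (95% interval -0.05 to 0.35) without NAC and by -0.07 (-0.27 to 0.13) with NAC, and Mmp2 by -0.01 (-0.23 to 0.22) and 0.09 (-0.14 to 0.31). Under the Npc1 oligo Timp3 was lower with NAC, at 7.36, 7.43, 6.98, 7.55 and 7.36 against 7.53, 7.56, 7.82, 7.71 and 7.75, with overlap. That difference of -0.34 ± 0.10 (adjusted p = 0.0346) was -0.25 (adjusted p = 0.101) without mouse 3 of the NAC group. The call was also lost with no filter (adjusted p = 0.0535) and with only the compared groups (adjusted p = 0.0956). Leaving out Npc1 oligo mouse 3, 4 or 5, or mouse 1 or 5 of the NAC group, lost it too (adjusted p from 0.0548 to 0.0811). Timp3 and Mmp14 were the 2 members called in this comparison, beside 7.15% of genes (2.88% higher, 4.27% lower). No member passed for the interaction of NAC and oligo (0 of 6 in limma, 0 at an unadjusted p under 0.05, 4.83% of genes called, 1.15% higher and 3.68% lower). The higher share of those called was 23.8%, and 49.0% after quantile normalization. None passed for fasting either (0 of 6 in limma, 0 unadjusted, 0.529% of genes called, 0.210% higher and 0.319% lower), and the higher share of those called went from 39.7% to 50.8% with centred arrays.

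Of the 3 dim members, Mmp8 was lower under the Npc1 oligo with NAC by -0.52 ± 0.13 in the fit with no filter (adjusted p = 0.00546), in which 8.32% of genes were called lower. Control oligo mice with NAC measured 4.21, 4.70, 3.76, 4.29 and 4.21 and Npc1 oligo mice with NAC 3.69, 3.61, 3.54, 3.99 and 3.74, with overlap. In that comparison 4 of 5 neutrophil genes tested were lower, Retnlg by -1.24, beside 14.7% of all genes tested. Mmp9 was higher with NAC under the control oligo by 0.40 ± 0.11 (adjusted p = 0.0393, 2.85% of genes higher). Of the 12-week groups, the neutrophil list was highest in the same one, at 6.01 against 5.43 with the control oligo alone, and Lcn2 was higher by 3.02 there. Timp1 was higher with NAC under the Npc1 oligo by 0.49 ± 0.14 (adjusted p = 0.0431, 1.30% of genes higher).

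The macrophage list stood at 6.66 in untreated, 6.99 in control oligo and 7.59 in Npc1 oligo mice. The Kupffer cell list stood at 7.18, 7.51 and 7.75, and its genes Cd5l and Vsig4 were higher by 1.01 and 0.99 under the Npc1 oligo without NAC, as the 2 of 7 genes called. With NAC 4 of 7 were called, Cd5l (0.47) and Vsig4 (0.58) higher and Timd4 (-0.69) and Marco (-0.61) lower, and the list stood at 7.61 against 7.69. Of the 17 substrate genes, 0 passed under the Npc1 oligo without NAC (limma, 2 at an unadjusted p under 0.05) and 4 were higher with NAC, among them Col1a2 (0.46). Beside these Kupffer cell and substrate counts, 22.6% of all genes tested were called without NAC (14.7% higher, 7.88% lower). With NAC 25.7% were called (11.0% higher, 14.7% lower). Plau was higher by 0.90 and 1.02, Plaur by 0.73 and 0.55, and Adam8 by 1.07 and 0.98, without and with NAC.

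The AP-1 genes, whose proteins bind the element shown for Mmp13, were high in the control oligo group. Against untreated mice, Jun was higher by 2.67 ± 0.32 (adjusted p = 9.52e-07), Fos by 2.64 ± 0.38 (adjusted p = 1.3e-05) and Fosb by 1.09 ± 0.27. Under the Npc1 oligo without NAC neither Jun nor Fos was called. With NAC, Jun was lower by -1.99 ± 0.32 and Fos by -1.34 ± 0.38, while Mmp13 was higher in both comparisons. In the age series Jun was higher in Npc1-/- mice at each age, by 1.66 at 7 weeks, and Mmp13 was not. Binding at the Mmp13 promoter was not measured, and a link between these genes and Mmp13 was not tested.

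The genotype difference at 11 weeks was then set against the oligo difference without NAC in a fit of all 78 arrays, in which 8 members passed the filter. The 2 differed for 5 of the 8, beside 27.7% of 12748 genes (11.7% further up, 16.0% further down). With centred arrays the first share of those called went from 42.2% to 25.2%. Timp2 was 1.88 ± 0.16 further up in the genotype comparison (adjusted p = 3.53e-15), Timp3 1.21 ± 0.20 (adjusted p = 1.78e-06), Mmp14 0.90 ± 0.17 (adjusted p = 2.46e-05) and Mmp2 0.61 ± 0.15 (adjusted p = 0.000897). Mmp13 went the other way, by -1.30 ± 0.22 (adjusted p = 4.48e-06). It entered this fit only through arrays of oligo mice, so that p depends on them. In limma fits with no filter, its genotype difference at 11 weeks was -0.18 (adjusted p = 0.238). Its oligo difference without NAC was 1.12 (adjusted p = 9.83e-05). Mmp8 (0.36, adjusted p = 0.179), Mmp9 (0.47, adjusted p = 0.0625) and Mmp19 (0.33, adjusted p = 0.0851) did not pass. Mmp19 passed after quantile normalization (0.49, adjusted p = 0.00298) and without 11-week Npc1-/- mouse 3 (0.40, adjusted p = 0.0449). Mmp9 passed without 11-week Npc1+/+ mouse 3 (adjusted p = 0.0444) or control oligo mouse 3 (adjusted p = 0.0354). The mice differ in line, age, and the length and manner of Npc1 loss, whose parts cannot be told apart.

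**Figure D5:**
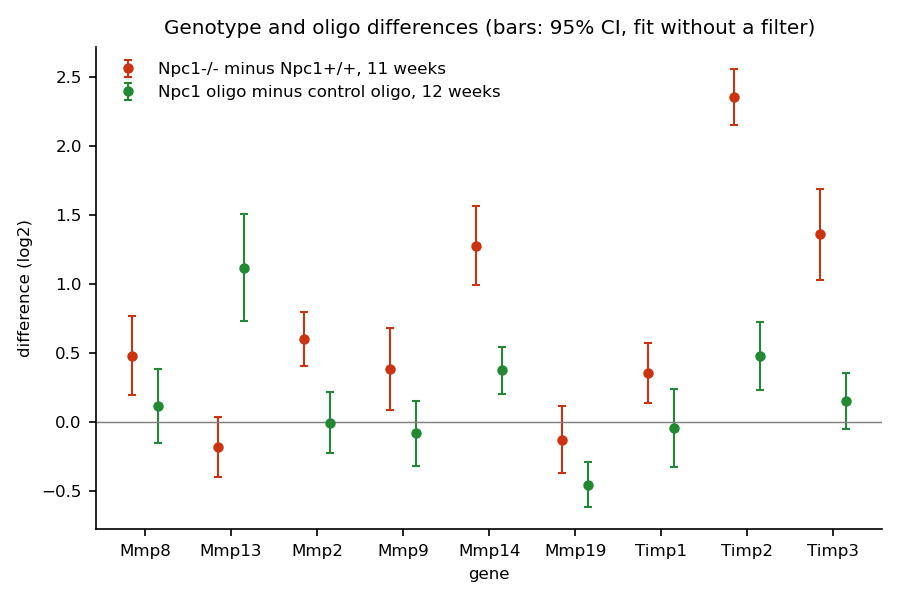
Log2 difference (vertical axis) of each of the 9 genes for Npc1-/- against Npc1+/+ mice at 11 weeks (red, 4 mice per group) and for Npc1 oligo against control oligo mice at 12 weeks (green, 5 per group), with 95% confidence intervals from a fit without a filter. Timp2 (2.35 and 0.48) and Timp3 (1.36 and 0.15) were further up by genotype and Mmp13 (-0.18 and 1.12) by the oligo.

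The genes most like each member over the 18 group means were named by Pearson r, as a description, since groups share age and set of mice. Timp2 was most like Osbpl3 (r = 0.99), Il7r (0.99) and Prkcd (0.99), and Timp3 like Anxa4 (0.93), Naglu (0.93) and Slc12a4 (0.90). Naglu encodes a lysosomal enzyme of heparan sulfate breakdown. Mmp2 was most like Lama2 (0.97), Col1a2 (0.97) and Arhgef25 (0.96), the first of them a laminin chain. Mmp14 was most like Trim35 (0.97), Pik3cg (0.96) and Plekha2 (0.96).

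Mmp8 was most like Ifitm6 (0.98), Retnlg (0.96) and Ly6g (0.96), and Mmp9 like Mmp8 (0.95), Ifitm6 (0.95) and Ly6g (0.94). Ly6g is a surface marker of mouse neutrophils. Mmp13 was most like Vsig4 (0.89), a complement receptor of Kupffer cells, then Tmed5 (0.88) and Tinagl1 (0.84). Mmp19 was most like Fam219b (0.83), Npc1 itself (0.82) and Akr1c6 (0.80). Timp1 was most like Nek6 (0.87), Cpne8 (0.84) and Litaf (0.83). Among the members, Timp2 and Timp3 had r = 0.74, Mmp2 and Mmp14 r = 0.82, and Mmp13 and Mmp19 r = -0.75.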

How the data were processed

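The authors deposited a table of log2 expression values, 1 column per sample and 1 row for each of 35556 probe sets. The submitters' processing notes list RMA and Partek 6.5, with no role or order. Array scaling, genome build and aligner are not given in the sources used here. The platform's table gave 21789 probe sets a single symbol, 1621 several and 12146 none. Each of 19938 genes was read from its brightest probe set by mean. All 78 columns matched samples by name, 0 columns were unmatched, and 0 pairs of columns were identical.

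Tests used limma 3.58.1 in R 4.3.3 (lmFit with group means, eBayes), separately for the age series (12638 genes passing the filter), the second set (11900) and, to compare genotype with oligo, all 78 arrays (12748). The filter took 5.54 as its level because it is the median of the whole table. The number of mice limits the precision.

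The members and lists were chosen with earlier results of these data known. Named genes are the 9 members, Npc1, up to 4 genes per list with the largest difference past the threshold, marker genes beside a result, and the 3 genes most like each member. List levels are means of log2 values. Same-numbered mice of different groups were checked for shared deviations. Correlations ran from -0.33 to 0.29, and 0 of 12 contrasts had every pair above 0.1. For control oligo against untreated, 4 of 5 mice matched best with their own number, beside 0 to 2 in each other contrast. As a rule on every pair cannot exclude pairing, this was left unsettled, and mice were tested as unpaired. The procedure was tested on simulated data. Alternatives were no filter, a filter at 6.18 (percentile 60), quantile normalization, median centring, averaging of probe sets, a robust trended prior, only the compared groups, the replicate number as a block, and mice left out.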

Additional observations from a re-analysis of the deposited data

Results flagged for a closer look

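Within groups, 5 of 162 sets of a member and a group held 1 mouse far from the rest by Dixon's test, where chance flags about 1 in 20 (8.1 sets). They were Mmp2 in 9-week Npc1+/+ mouse 4 (6.54, low), Mmp19 in 1-week Npc1+/+ mouse 3 (9.32, high), Timp1 in 11-week Npc1+/+ mouse 2 (4.48, low), Timp1 in untreated 12-week mouse 3 (4.52, low) and Timp2 in mouse 3 of the Npc1 oligo with NAC (6.80, low).

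The genotype difference varied between ages by limma's moderated F test for Mmp2 (adjusted p = 0.000127), Mmp8 (9.82e-05), Mmp9 (0.00175), Mmp14 (1.41e-06), Timp2 (3.04e-17) and Timp3 (0.00155). Mmp8 and Mmp9 entered that test only through 1-week arrays, mostly of Npc1+/+ mice, so their p depends on them. The genotype difference at 11 weeks was unlike the oligo difference at 12 weeks in limma for Mmp2 (adjusted p = 0.000897), Mmp13 (4.48e-06), Mmp14 (2.46e-05), Timp2 (3.53e-15) and Timp3 (1.78e-06). Mmp13 entered that fit only through arrays of oligo mice.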

How the results depend on the processing

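Of 51 combinations of a member and a comparison past the threshold, 42 stayed past it under every alternative in which the member was tested and 0 reversed. Of 55 not past it, 49 stayed so, and 21 changed sign at least once, all with small differences. Alternatives in which a member was not tested are left out of these counts. Mmp8 at 1 week thus counts as kept on 14 alternatives, against 17 for Timp2. It was not called with the stricter filter, with median centring or without Npc1+/+ mice 3 and 4. At 1 week the 2 members called became 0 with the stricter filter, 1 with median centring, 1 with only the compared groups, 0 without Npc1+/+ mice 3 and 4, and 1 to 2 with single mice left out. At 3 weeks the 3 became 1 without Npc1+/+ mice 1 and 2. For NAC under the control oligo 1 became 2 with no filter. For NAC under the Npc1 oligo 2 became 0 with only the compared groups and ran from 0 to 2 with single mice left out. For the control oligo against untreated, 1 became 3 after quantile normalization and 0 with only the compared groups, where Mmp13 was not tested. The causes were not tested. Where numbers were used as a replicate block, counts of members called stayed at 2, 3, 4, 4, 4 and 6 over the 6 ages, and the block changed no call.

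Quantile normalization turned Mmp19 to 0.032 at 9 weeks, 0.00048 at 11 weeks and 0.029 for control oligo against untreated, Mmp14 to 0.058 for the interaction and Timp3 to 0.017 for fasting. Median centring turned Mmp2 to 0.0093 for the oligo without NAC, Timp3 to 0.0079 for fasting and Timp2 to -0.00017 for control oligo against untreated. The averaged genotype difference became -0.010 for Mmp8 without 3-week Npc1+/+ mice 1 and 2, and 0.023 for Mmp9 without 1-week Npc1+/+ mice 3 and 4.

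With single mice left out, Mmp8 ran from -0.15 to 0.071 at 3 weeks, from -0.074 to 0.048 at 9 weeks and from -0.020 to 0.042 averaged. Mmp19 ran from -0.094 to 0.025 at 5 weeks and from -0.084 to 0.091 at 9 weeks, and Mmp9 from -0.072 to 0.061 at 9 weeks. Under the Npc1 oligo Mmp2 ran from -0.046 to 0.056 without NAC and from -0.020 to 0.21 with it, and Timp3 with NAC from -0.15 to 0.018. For NAC under the Npc1 oligo Mmp2 ran from -0.12 to 0.10 and Timp2 from -0.014 to 0.24. For the interaction Mmp14 ran from -0.12 to 0.0091, Mmp19 from -0.011 to 0.081 and Mmp2 from -0.012 to 0.21. For fasting Mmp14 ran from -0.056 to 0.040, Timp2 from -0.078 to 0.021 and Timp3 from -0.084 to 0.017. For control oligo against untreated Mmp19 ran from -0.11 to 0.0070 and Timp2 from -0.034 to 0.044. Signal limits Timp1, Mmp8, Mmp9 and Mmp13, whose group means lay below 5.54 in 18, 17, 17 and 16 of the 18 groups.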
